A study of Mus musculus with 23 samples.

Results

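The 11 cortex libraries of the series fell into 2 classes by their level of Chat, the gene of choline acetyltransferase, the enzyme that makes acetylcholine. The classes were selected on Chat itself: 7 libraries had at least 1 RPKM and 4 had under 0.5 RPKM, out of 23 libraries of the series in all. RPKM is a read number scaled to gene length and to the alignments of the library. The high-Chat libraries were F112 mice 6317 and 6324, F08 mice 6318 and 6321, and NTg mice 6323, 6326 and 6327. The low-Chat libraries were F112 mouse 6316, F08 mice 6319 and 6320, and NTg mouse 6322. F112 mice carry a human C9orf72 transgene with the repeat expansion, F08 mice carry the human gene unexpanded, and NTg mice are nontransgenic; all were C57BL/6 and 6 months old. Each transgene is represented by a single BAC line, and the labels do not give sex.

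The values were 3.12, 2.51, 2.35, 1.92, 1.82, 1.52 and 1.35 RPKM of Chat in the high-Chat libraries, against 0.279, 0.237, 0.159 and 0.105 RPKM in the low-Chat libraries. The high-Chat library closest to the threshold was F112 6324 and the low-Chat library closest to it was F08 6319, with no library between them. The contrast between the classes is given as a description without a test, because the rule that made the classes used a value of the same libraries. The question is which genes of the striatum or of other brain regions go with Chat in samples labelled cortex.

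Acetylcholine is loaded into vesicles by Slc18a3, the vesicular acetylcholine transporter, and choline is taken back into the terminal by Slc5a7. In the mouse forebrain the cell bodies that carry this machinery sit mainly in the striatum, as interneurons, and in the basal forebrain, as neurons that project to the cortex. The striatum lies directly beneath the cortex and is made up largely of medium spiny neurons, which are GABAergic and divide into a class with the dopamine D1 receptor and a class with the D2 receptor and an adenosine receptor.

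Chat and Slc18a3 share a locus. In the GENCODE M21 annotation (GRCm38) Chat covers chromosome 14, 32408203 to 32465989, and Slc18a3 covers 32462438 to 32464850 on the same minus strand, inside intron 1 of the transcript Chat-201. The handling of reads where the genes overlap (not given in the sources used here) could mix them, so their 2 values are not wholly separate measurements. The promoter windows of this pair and of the 2 dopamine receptor genes are shown because these 4 genes separated the classes together. They run from 250 bases before to 50 bases after the annotated start (RefSeq, GRCm38.p6, 5′ to 3′ on the strand of the gene), at chr14:32465860-32466159, minus strand, for Chat, chr14:32464801-32465100, minus strand, for Slc18a3, chr9:49340153-49340452, plus strand, for Drd2 and chr13:54055609-54055908, minus strand, for the first of 2 entries of Drd1, which the expression table calls Drd1a. Capitals mark matches on either strand to a GC box (GGGCGG) or to the TGACG core of a cAMP response element.
Chat: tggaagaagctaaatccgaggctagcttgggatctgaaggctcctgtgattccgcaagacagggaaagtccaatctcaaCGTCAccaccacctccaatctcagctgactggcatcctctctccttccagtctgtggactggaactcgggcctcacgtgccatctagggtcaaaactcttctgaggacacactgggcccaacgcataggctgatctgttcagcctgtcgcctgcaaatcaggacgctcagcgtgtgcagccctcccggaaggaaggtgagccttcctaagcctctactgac
Slc18a3: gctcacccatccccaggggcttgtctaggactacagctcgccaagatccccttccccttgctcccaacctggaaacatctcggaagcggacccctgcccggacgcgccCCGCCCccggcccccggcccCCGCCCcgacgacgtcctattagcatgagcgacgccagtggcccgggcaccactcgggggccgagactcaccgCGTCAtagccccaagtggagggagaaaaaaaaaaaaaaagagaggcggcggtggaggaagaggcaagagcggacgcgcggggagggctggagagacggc
Drd2: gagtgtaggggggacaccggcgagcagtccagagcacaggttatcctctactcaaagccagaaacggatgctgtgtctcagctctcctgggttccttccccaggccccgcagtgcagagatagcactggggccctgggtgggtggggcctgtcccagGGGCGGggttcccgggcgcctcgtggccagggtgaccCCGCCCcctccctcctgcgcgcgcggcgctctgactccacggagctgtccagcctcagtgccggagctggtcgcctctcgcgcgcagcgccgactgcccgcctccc
Drd1: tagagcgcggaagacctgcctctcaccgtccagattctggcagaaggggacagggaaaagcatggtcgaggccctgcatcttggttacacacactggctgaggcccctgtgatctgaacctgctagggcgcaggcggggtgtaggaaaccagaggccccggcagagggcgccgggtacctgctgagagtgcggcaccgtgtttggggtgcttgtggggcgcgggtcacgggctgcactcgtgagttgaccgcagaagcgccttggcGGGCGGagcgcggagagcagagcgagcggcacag
A GC box stood 2 times in the Slc18a3 window, 2 times in the Drd2 window, 1 time in the Drd1 window and 0 times in the Chat window, and 35.7% of 32851 promoter windows in the same table hold at least 1. The TGACG core stood 1 time each in the Chat and Slc18a3 windows and 0 times in those of Drd2 and Drd1, and 20.8% of all windows hold it. The homeodomain core TAATTA, found in 5.29% of all windows, was in 0 of the 4. The GC content was 55.7% for Chat, 67.0% for Slc18a3, 70.3% for Drd2 and 65.7% for Drd1, against a median of 52.7% over all windows, and none of the 3 motifs was in all 4 windows. Of the 12 genes followed throughout, 8 had an entry in the table.

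Library measures that the rule did not use were set beside the classes first. The high-Chat class held 2 F112, 2 F08 and 3 NTg libraries and the low-Chat class 1 F112, 2 F08 and 1 NTg library (Fisher's exact test, two-sided, p = 1). Alignments averaged 12385500 ± 1964240 in high-Chat and 11383700 ± 2306540 in low-Chat libraries (SD, n = 7 and 4; exact permutation test, two-sided, p = 0.452, 0.727 adjusted over 4 measures). The adjusted exact p was 0.727 as well for the number of genes detected and for Rn45s, the ribosomal RNA precursor. Xist, the RNA of the silenced X chromosome, reached 5 RPKM or more in 3 of 7 high-Chat and 3 of 4 low-Chat libraries (Fisher's exact p = 0.545). Ttr, a choroid plexus gene, exceeded 100 RPKM in 1 high-Chat library (NTg 6326, 375 RPKM) and in 2 low-Chat libraries (F08 6320, 725 RPKM, and NTg 6322, 705 RPKM; Fisher's exact p = 0.491). With 330 arrangements the permutation test allows no p below 0.00303. Principal components were computed over all kept genes, Chat among them. The first held 38.2% of the variance. On it the classes overlapped, with high-Chat libraries between -0.26 and 0.41 and low-Chat libraries between -0.33 and 0.44. On the second component, with 15.1%, high-Chat libraries lay between -0.13 and 0.51 and low-Chat libraries between -0.40 and -0.16. Its sign was set so that the high-Chat mean is the higher.

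Of the 13865 genes that averaged 0.5 RPKM or more, 251 had all 7 high-Chat libraries above all 4 low-Chat libraries (1.81%) and 98 had all 7 below (0.707%). Chat is 1 of the 251, and since the class rule used these libraries, no more is read from either share. Of the 251, 66 differed by at least 1 on the log2 scale, where all differences between classes are of mean log2(RPKM + 0.5), high-Chat minus low-Chat. Of the 98, 1 gene (Grp) was lower by at least that much. The median difference over all genes was 0.04. Leaving out a library cannot lower either count, since fewer libraries must then be kept apart. The largest counts came without F08 6320, at 667 above and 258 below. The count below also came to 217 without NTg 6322, 161 without F112 6324, 153 without F08 6319 and 151 without NTg 6327.

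Drd2, the dopamine D2 receptor, held the largest difference of all kept genes at 3.05, followed by Adora2a, the adenosine receptor paired with it in these neurons, at 2.86. Other genes among the 10 largest without overlap were Syndig1l (2.59), Rgs9 (2.54), Penk (2.31), Serpina9 (2.27), Gpr6 (2.27), Ecel1 (2.26) and Ppp1r1b (2.22). Apart from Serpina9 and Ecel1, the genes named here belong to the striatal lists. Of the 66 genes higher by at least 1 without overlap, 38 stood on the cholinergic list or on 1 of the 3 lists of medium spiny neuron genes, and 25 stood on no list. Chat itself ranked 21st by difference, a value that the pseudocount lowers for genes at its level.

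**Figure D1:**
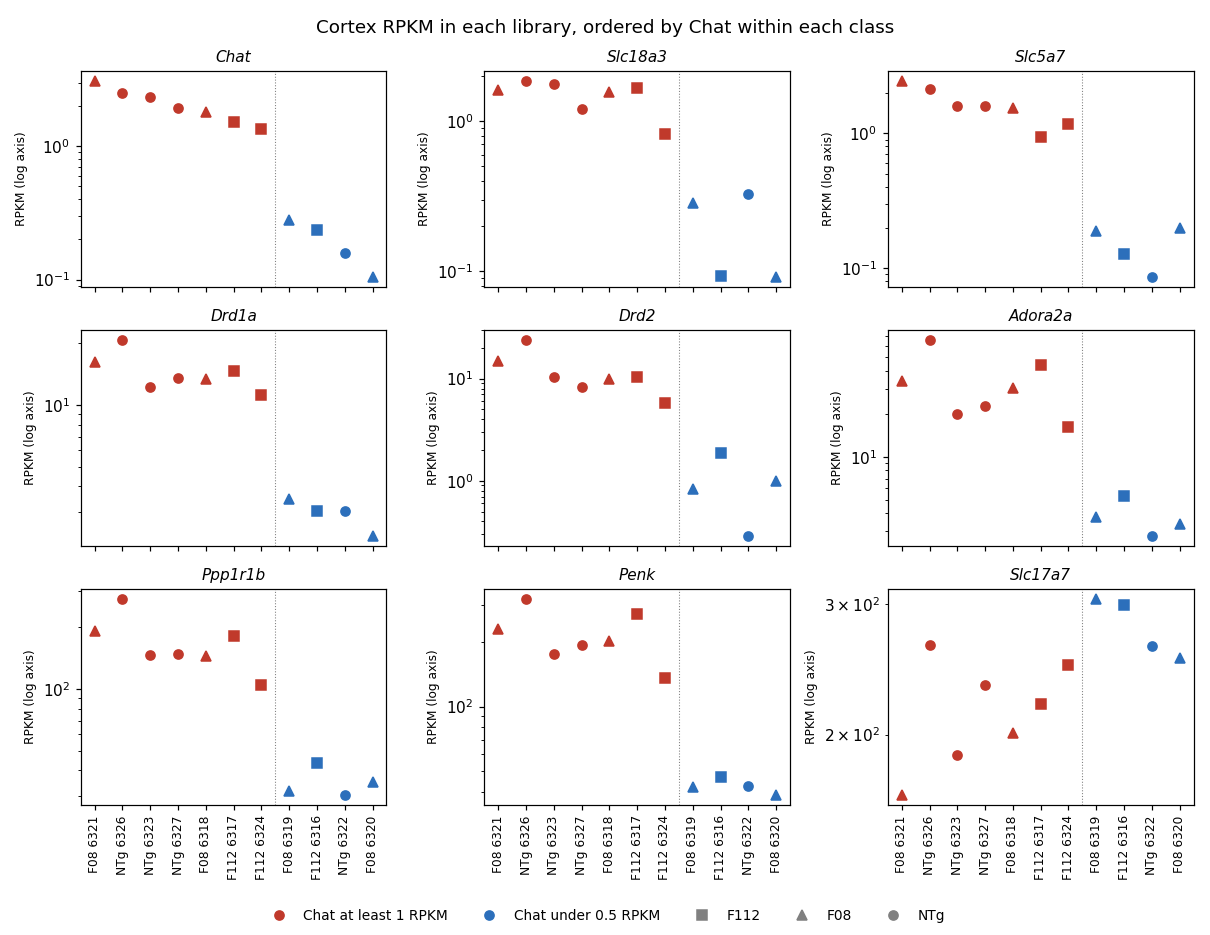
RPKM (log axes) of 9 genes in each cortex library, with high-Chat libraries left of the dotted line and low-Chat libraries right of it, each ordered by Chat; symbols mark the genotype. For 8 of the 9 genes every high-Chat library lies above every low-Chat library, while Slc17a7 runs the other way with overlap (166 to 264 against 253 to 305 RPKM).

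The cholinergic list held 12 genes, and all 12 separated the classes in the same direction, with a median difference of 1.54. Over all kept genes the share with all 7 high-Chat libraries above was 1.81%. A motor neuron list that shares Chat, Slc18a3, Slc5a7, Slc10a4 and Isl1 with it had 5 of 7 kept genes without overlap and a median of 1.68. Those 5 were the shared genes, so no other gene of the motor neuron list separated the classes. Slc5a7, the choline transporter, had 0.947 to 2.46 RPKM in high-Chat libraries with a median of 1.59, against 0.199, 0.189, 0.129 and 0.0865 RPKM in low-Chat libraries, a difference of 1.68. Slc18a3 had 0.822 to 1.87 RPKM (median 1.62) in high-Chat libraries, against 0.325, 0.284, 0.0920 and 0.0915 RPKM in low-Chat libraries, a difference of 1.52. The lowest high-Chat library was thus well above the highest low-Chat library for both. Both genes, like Slc10a4, were under 0.5 RPKM in every low-Chat library and so passed the filter only through the high-Chat libraries. Slc10a4, a vesicle protein of cholinergic and monoamine neurons, had 1.57 to 2.75 RPKM (median 2.25) against 0.332, 0.320, 0.269 and 0 RPKM. Ache, which breaks acetylcholine down and is made by many kinds of neuron, showed the smallest difference of the list (0.68), with 21.3 to 34.6 RPKM in high-Chat and 14.8, 16.5, 17.8 and 17.8 RPKM in low-Chat libraries. Ache was therefore well expressed in the libraries where Chat was close to 0.

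Genes of cholinergic identity were also higher in the high-Chat libraries. Lhx8, Isl1 and Gbx1 were under 0.5 RPKM in every low-Chat library and so passed the filter only through the high-Chat libraries. Their separation is therefore no independent sign. Lhx8, a LIM-homeodomain factor of forebrain cholinergic neurons, had 0.431 to 2.17 RPKM (median 1.09) in high-Chat libraries and 0.169, 0.0372, 0 and 0 RPKM in low-Chat libraries. Isl1, a LIM-homeodomain factor that D1 medium spiny neurons also use, had 0.802 to 3.84 RPKM (median 1.64) against 0.484, 0.204, 0.0775 and 0 RPKM. Ngfr, a neurotrophin receptor that basal forebrain cholinergic neurons carry, had 1.31 to 3.74 RPKM (median 1.92) against 0.929, 0.431, 0.359 and 0.263 RPKM, again with no overlap (1.49). Gbx1 differed by 1.21, with 0.324 to 1.21 RPKM against 0.154 RPKM in NTg 6322 and 0 RPKM in the other 3. All of these sit near the low end of the range, where the pseudocount sets much of a log2 difference: with 0.1 in place of 0.5 the difference was 2.88 for Chat and 2.76 for Slc5a7, and with 1 it was 1.35 and 1.17.

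The D2 list had the largest median of the 26 lists, 2.29 over 6 kept genes of 7. Of the 6, 5 separated the classes, beside 1.81% of all kept genes in that direction. Drd2 had 5.76 to 24.1 RPKM in high-Chat libraries with a median of 10.4, against 1.86, 0.998, 0.822 and 0.289 RPKM in low-Chat libraries. Adora2a had 16.1 to 66.3 RPKM (median 30.3) against 5.26, 3.75, 3.37 and 2.78 RPKM. Penk, which encodes the enkephalin precursor, was the most abundant gene of the list, with 136 to 320 RPKM (median 203) in high-Chat libraries and 46.7, 42.7, 41.9 and 38.6 RPKM in low-Chat libraries. Low-Chat libraries were far from free of Penk, and their 4 values lay close together. Gpr6, an orphan receptor of these neurons, had 4.39 to 19.1 RPKM (median 8.98) against 1.73, 1.64, 1.55 and 0.897 RPKM. Sp9 overlapped between the classes (difference 0.69).

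The D1 list had 8 kept genes, of which 6 separated the classes (1.81% over all kept genes), with a median of 1.50. Drd1a, the D1 receptor, had 11.2 to 20.9 RPKM (median 13.5) in high-Chat libraries, against 3.47, 3.05, 3.02 and 2.29 RPKM in low-Chat libraries, a difference of 2.11. Tac1, the substance P precursor, had 41.0 to 70.4 RPKM (median 50.9) against 15.3, 13.4, 11.5 and 7.58 RPKM, a difference of 2.15. Pdyn, the dynorphin precursor, had 13.3 to 30.3 RPKM (median 21.6) against 7.96, 7.94, 7.59 and 7.09 RPKM. Markers of both medium spiny classes were thus higher in the same 7 libraries. Chrm4 (0.36) and Eya1 (-0.08) overlapped.

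Of 32 genes shared by both medium spiny classes, 23 separated the high-Chat from the low-Chat libraries, beside 1.81% of all kept genes. Of the 32, 31 were above 0, with a median of 1.29. Ppp1r1b, which encodes the dopamine-regulated phosphoprotein DARPP-32, had 105 to 275 RPKM (median 147) in high-Chat libraries, against 43.3, 35.1, 31.7 and 30.4 RPKM in low-Chat libraries. Rgs9, a regulator of G protein signalling, had 26.8 to 58.6 RPKM (median 37.3) against 7.39, 7.21, 6.96 and 3.66 RPKM. Pde10a, a phosphodiesterase of medium spiny neurons, had 21.1 to 58.4 RPKM (median 28.0) against 9.95, 9.52, 8.27 and 6.47 RPKM. The members that overlapped were Crym (-0.17), Hpca (0.03), Ppp1r16b (0.18), Arpp19 (0.19), Foxp1 (0.26), Bcl11b (0.50), Kcnh4 (0.56), Meis2 (0.69) and Ido1 (1.08), several of which cortical neurons also express. In bulk RNA, fewer cells of a type and less RNA per cell cannot be told apart, for these genes and for every list here.

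**Figure D2:**
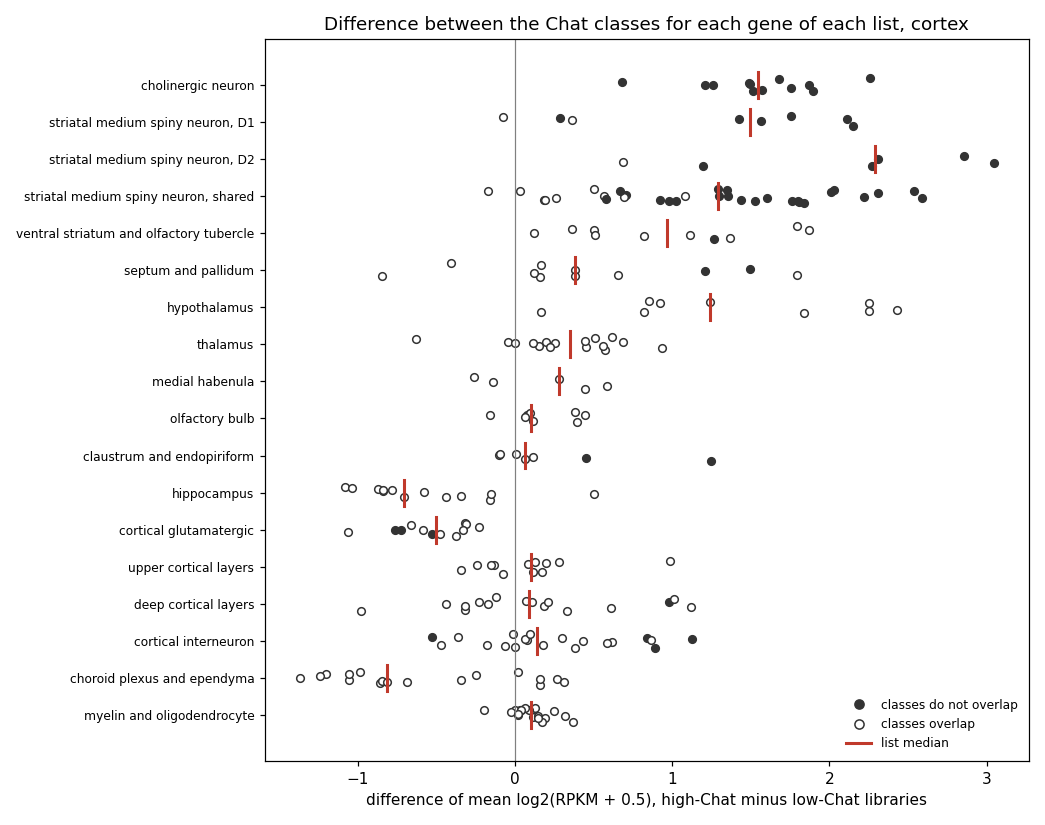
Difference between the classes (x axis, mean log2(RPKM + 0.5), high-Chat minus low-Chat libraries) for each kept gene of 18 lists; filled circles are genes whose classes do not overlap and red bars are list medians. The cholinergic and the 3 medium spiny lists lie to the right with mostly filled circles (medians 1.29 to 2.29), while the hippocampus, glutamatergic and choroid plexus lists lie to the left.

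Lists of neighbouring regions gave larger values than the overall median in some cases but seldom without overlap. Over all kept genes 1.81% had all 7 high-Chat libraries above. Genes of the ventral striatum and olfactory tubercle had a median of 0.97, with 10 of 10 kept genes above 0 and 1 (Drd3, the dopamine D3 receptor) without overlap. Drd3 had 0.210 to 1.42 RPKM (median 0.797) in high-Chat libraries and 0.0549, 0, 0 and 0 RPKM in low-Chat libraries. It passed the filter on mean RPKM only through the high-Chat libraries, so its separation is no independent sign for this list. The septum and pallidum list had a median of 0.38 and 2 of 11 genes without overlap, Lhx8 and Gbx1. Both are also on the cholinergic list and likewise passed the filter only through the high-Chat libraries. The hypothalamus list had a median of 1.24 and 9 of 9 genes above 0, yet 0 of 9 without overlap. Pmch, the melanin-concentrating hormone precursor, was at 23.4 RPKM in F08 6321, 38.1 RPKM in NTg 6323 and 7.99 RPKM in F08 6318, at or below 0.597 RPKM in the other 4 high-Chat libraries, and at 0 to 0.476 RPKM in the low-Chat libraries. The difference for Pmch thus rests on 3 high-Chat libraries, and Oxt, the oxytocin precursor, was likewise at 26.3 RPKM in NTg 6323 and 23.4 RPKM in F08 6321.

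Thalamus (median 0.35, 0 of 16 without overlap) and medial habenula (0.28, 0 of 5) followed F08 6318, the high-Chat library with the highest mean of both lists. Without it the medians were 0.19 for the thalamus and -0.06 for the habenula. Prkcd, a kinase abundant in thalamic relay neurons, was at 13.9 RPKM in F08 6318 and 2.50 to 4.60 RPKM in the other high-Chat libraries, against 6.10, 3.68, 2.29 and 2.06 RPKM in the low-Chat libraries. The olfactory bulb list had a median of 0.10 with wide spread in both classes. Doc2g, its member with the largest difference, had 0.740 to 15.8 RPKM in high-Chat libraries and 12.6, 10.2, 1.19 and 0.561 RPKM in low-Chat libraries. The list's median was 1.54 among libraries with high Xist and -1.69 among those with low Xist, and -0.21 without NTg 6322. The claustrum list had a median of 0.06, and -0.16 without F08 6319. In it 2 of 7 genes, Gnb4 and Oprk1, were without overlap (1.81% over all kept genes). Its widest member was Oprk1, the kappa opioid receptor (1.65 to 2.52 RPKM against 0.785, 0.663, 0.563 and 0.354 RPKM).

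Genes of cortical excitatory neurons were lower in the high-Chat libraries. Of 12 genes on the glutamatergic list 12 were below 0, with a median of -0.50, and 3 separated the classes. Over all kept genes 0.707% had all 7 high-Chat libraries below. Neurod2, a neurogenic transcription factor, had 13.2 to 19.1 RPKM (median 16.8) in high-Chat libraries, against 31.2, 27.9, 27.3 and 22.0 RPKM in low-Chat libraries. Grm2, a presynaptic metabotropic glutamate receptor, had 5.32 to 11.4 RPKM (median 8.92) against 18.4, 15.1, 14.0 and 13.0 RPKM. Nptx1, a neuronal pentraxin, had 32.1 to 50.0 RPKM (median 43.0) against 63.7, 63.7, 63.1 and 52.1 RPKM. Slc17a7, the main vesicular glutamate transporter of cortex, had 166 to 264 RPKM (median 220) against 305, 299, 263 and 253 RPKM, with an overlap, and so was abundant in all 11 libraries as the tissue label states. Markers of upper layers (0.10) and deep layers (0.09) had medians near that of all genes.

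Grp, a bombesin-like neuropeptide, had the largest downward difference without overlap, with 0.534 to 3.26 RPKM (median 2.63) in high-Chat libraries and 7.20, 7.11, 5.25 and 4.85 RPKM in low-Chat libraries (-1.40). Adcy1, a calcium-stimulated adenylyl cyclase, had 34.5 to 62.3 RPKM (median 54.8) against 92.4, 90.0, 84.2 and 75.7 RPKM (-0.73). The other genes among the 10 with the largest downward differences without overlap were Zbtb18, Echdc2, Galnt9, Tmem178, Mical2 and Papl, beside Grm2 and Neurod2 above, with differences between -0.71 and -0.63.

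GABAergic genes that striatum and cortex share differed less. Slc32a1, the vesicular GABA transporter, had 45.7 to 70.9 RPKM (median 56.5) in high-Chat libraries and 35.5, 31.9, 31.0 and 27.5 RPKM in low-Chat libraries, a difference of 0.84. Gad2, a GABA-synthesizing enzyme, differed by 0.89 and Dlx6, a homeobox gene of forebrain GABAergic neurons, by 1.12, both without overlap. Htr3a, the serotonin-gated channel of a class of cortical interneurons, went the other way, with 1.25 to 1.88 RPKM against 2.59, 2.37, 2.32 and 2.25 RPKM. Over the 20 kept genes of the cortical interneuron list the median was 0.14, with 3 above and 1 below without overlap. The shares over all kept genes were 1.81% above and 0.707% below. Receptors for acetylcholine had a median of -0.25 over 8 genes, and 0 of 8 separated the classes. Chrna5, a nicotinic receptor subunit, showed the largest difference of these, with 0.234 to 0.790 RPKM against 0.852, 0.833, 0.787 and 0.695 RPKM.

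In the lists for choroid plexus, myelin, astrocytes, microglia, endothelial and mural cells, meninges, red blood cells and immediate early genes, 0 genes separated the classes in either direction, which is close to the shares of 1.81% and 0.707% over all genes for lists of this size. Their medians were -0.82 (choroid plexus), 0.10 (myelin), 0.06 (astrocyte), 0.09 (microglia), 0.04 (endothelial and mural), 0.15 (meninges), -0.10 (red blood cell) and -0.16 (immediate early). The choroid plexus list followed the Ttr-rich libraries and its median was 0.34 without the 3 of them. Summed over the list it ranged from 30.7 to 474 RPKM in high-Chat and from 34.9 to 891 RPKM in low-Chat libraries. Without the Ttr-rich libraries the median was 1.54 for the cholinergic, 1.51 for the D1, 2.18 for the D2 and 1.10 for the shared list. The hippocampus list had a median of -0.70 with 12 of 13 genes below 0, and -0.27 without F08 6320. C1ql2, a marker of dentate granule cells, was at 14.4 RPKM in F08 6320 and 6.11 RPKM in F112 6316, against 0.245 to 2.23 RPKM in the other 9 libraries.

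**Figure D3:**
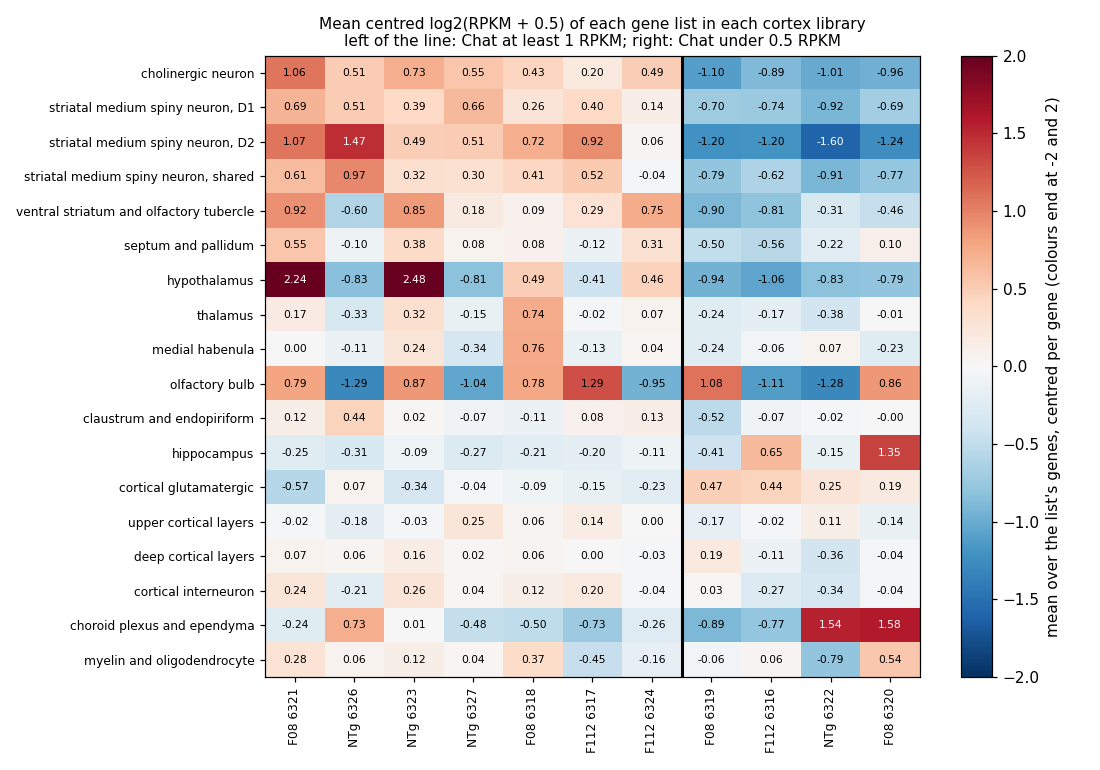
Mean of log2(RPKM + 0.5), centred per gene over the 11 libraries, for 18 gene lists (y axis) in each cortex library (x axis), high-Chat libraries left of the black line. The cholinergic and medium spiny lists change sign or fall sharply at the line (D2 from 0.06 to 1.47 among high-Chat and -1.60 to -1.20 among low-Chat libraries), while the hypothalamus, thalamus, olfactory bulb, hippocampus and choroid plexus lists are led by single libraries or a few.

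The size of the difference for the cholinergic and the 3 medium spiny lists is given by subset as a description, since most of their genes do not overlap between the classes and their direction in a subset is fixed by that. Within F112 mice (2 against 1 library) the median was 1.34 for the cholinergic, 0.92 for the D1, 1.71 for the D2 and 0.84 for the shared list. Within F08 mice (2 against 2) the medians were 1.75, 1.47, 2.54 and 1.42, in the same order, and within NTg mice (3 against 1) 1.71, 1.65, 2.32 and 1.44. The difference within F112 was thus the smallest of the 3 for each of the 4 lists, though each genotype holds few libraries and this was not tested. Among libraries with high Xist the cholinergic median was 1.50 and among those with low Xist 1.72. Among the 5 libraries with the most alignments it was 1.68 and among the other 6 it was 1.48. The glutamatergic list stayed below 0 in all these subsets and without the Ttr-rich libraries, between -0.62 and -0.30.

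The 7 high-Chat libraries were not alike. Over the 23 shared medium spiny genes that separated the classes, NTg 6326 was highest of the 7 for 20 and F112 6324 lowest for 19. Over the 12 cholinergic genes, F08 6321 was highest for 8 and F112 6317 lowest for 7. The order of libraries was therefore not the same for the cholinergic and the medium spiny genes. Adora2a ran from 16.1 RPKM in F112 6324 to 66.3 RPKM in NTg 6326, a 4.12-fold span, and Slc5a7 from 0.947 RPKM in F112 6317 to 2.46 RPKM in F08 6321, a 2.60-fold span.

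NTg 6326, the library with the highest D2 and shared medium spiny means, had the lowest mean of the 7 for ventral striatum, hypothalamus, thalamus and olfactory bulb genes. Its hypothalamus mean was close to that of NTg 6327 (-0.83 against -0.81). NTg 6326 was also lowest of the 7 for the hippocampus, upper layer, cortical interneuron and meninges lists. Dlk1, an imprinted gene, was at 0.937 RPKM there and at 2.21 to 11.4 RPKM in the other 6, against 1.77, 1.24, 0.713 and 0.383 RPKM in low-Chat libraries. Nts, the neurotensin precursor, was at 1.51 RPKM in NTg 6326 and 2.21 to 8.83 RPKM in the other 6. F08 6321 and NTg 6323 had the highest means for the ventral striatum (0.92 and 0.85) and hypothalamus lists (2.24 and 2.48). Libraries of 1 Chat class thus carried different additional region markers.

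A slope on the amount of Chat was fitted among the 7 high-Chat libraries, for which the rule used the threshold of 1 RPKM and not their order. The genes followed by name were chosen for their difference between the classes, so their slopes are a description. By limma across all genes with log2(Chat + 0.5) as covariate, 0 of 13864 genes passed an adjusted p under 0.05 (0%), and the smallest adjusted p was 1.00. An unadjusted p under 0.05 was found for 319 genes, fewer than the 693 expected by chance. Slc5a7 had a slope of 0.97 (SE 0.24, limma adjusted p = 1.00), Drd2 1.36 (SE 0.42), Slc18a3 0.54 (SE 0.31), Ppp1r1b 0.80 (SE 0.35) and Drd1a 0.51 (SE 0.25), in log2 units per log2 unit of Chat. The genes with the smallest p were Serpina9 (1.35), Six3 (1.00), Snrpg, Slc5a7 and Bloc1s1 with positive slopes, and Hist2h2bb, Neurod1, Cnih3, Lsm2 and Rnaset2a with negative ones. None of these passed after adjustment.

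By list, slopes were above 0 for 10 of 11 cholinergic genes (median 0.55, Chat left out), 6 of 6 D2 genes (0.87), 6 of 8 D1 genes (0.45) and 32 of 32 shared medium spiny genes (0.58), beside a median of 0.04 over all genes. The slope was also above 0 for 20 of 20 myelin genes (0.53), 15 of 17 choroid plexus genes (0.58) and 6 of 9 hypothalamus genes (1.23, the largest median of the 26 lists), in all of which 0 genes separated the classes. It was above 0 for 2 of 12 glutamatergic genes (-0.28). With 7 libraries and 0 genes passing, these counts are a description of the libraries. Six3, a homeobox gene of medium spiny neuron development, had 2.25 to 5.34 RPKM (median 2.83) in the high-Chat libraries and 0.634, 0.456, 0.400 and 0.133 RPKM in the low-Chat libraries. Serpina9, on no list, had 1.81 to 6.20 RPKM (median 3.87) against 0.656, 0.478, 0.463 and 0.132 RPKM.

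**Figure D4:**
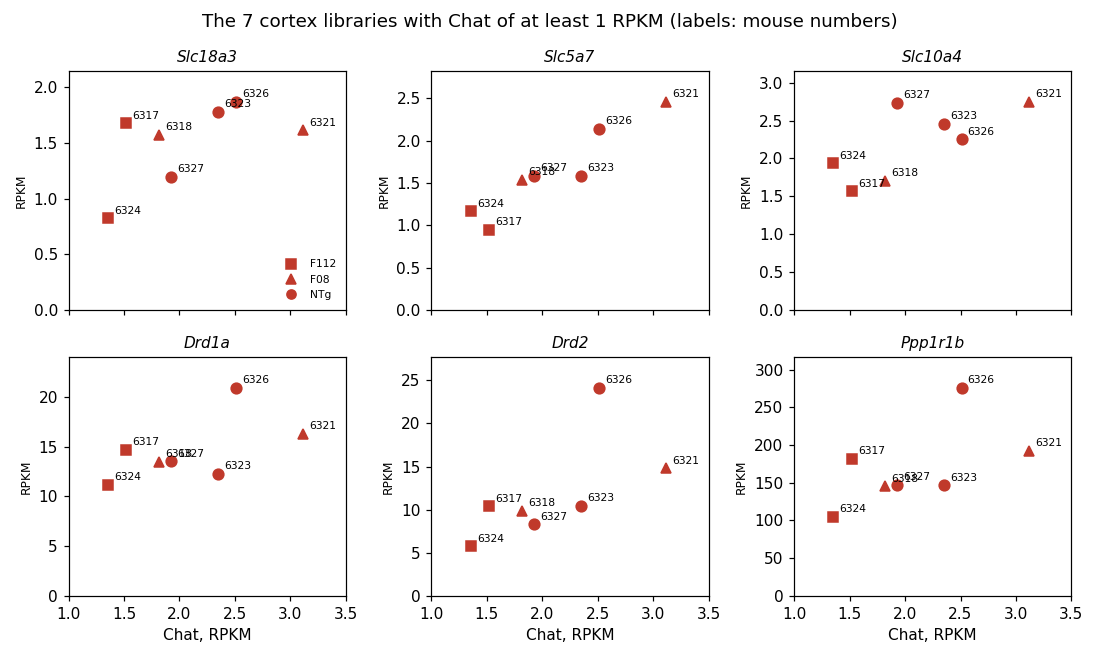
RPKM of 6 genes (y axes) against RPKM of Chat (x axes) in the 7 high-Chat cortex libraries, labelled by mouse, with symbols for genotype. Slc5a7 runs upward with Chat to 2.46 RPKM in mouse 6321, while Drd1a, Drd2 and Ppp1r1b peak in mouse 6326; 0 genes passed the test of the slope.

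Chat in the lumbar spinal cord, where motor neurons express it, was compared in the same 11 mice, since the rule did not use those libraries. It averaged 10.9 ± 0.81 RPKM in mice with high cortical Chat and 11.0 ± 0.63 RPKM in mice with low cortical Chat (SD, n = 7 and 4; exact permutation test, two-sided, p = 0.927). The values ran from 9.58 to 11.9 RPKM (median 11.0) in the 7 mice and were 11.8, 11.1, 10.7 and 10.3 RPKM in the 4, so the second range lies inside the first. Slc5a7 in cord had 13.7 to 18.3 RPKM (median 14.7) against 16.2, 15.7, 14.4 and 14.4 RPKM (log2 difference 0.03, SE 0.064, limma adjusted p = 0.992). Drd2 in cord had 5.86 to 6.92 RPKM (median 6.81) against 8.34, 7.34, 6.50 and 6.01 RPKM (-0.07, SE 0.072, limma adjusted p = 0.992). Penk, Ppp1r1b, Tac1, Rgs9 and Pde10a also had a limma adjusted p of 0.992 in cord.

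Across all genes of the spinal cord, with genotype as a term, limma called 0 of 13836 by cortical Chat class (0%). An unadjusted p under 0.05 was found for 414 genes, fewer than the 692 expected by chance, and the smallest adjusted p was 0.992. The standard error of these cord differences had a median of 0.05. The gene with the smallest p among those higher was Xlr3b, with 2.10 to 5.18 RPKM (median 3.23) in mice with high cortical Chat and 2.77, 2.10, 1.89 and 1.61 RPKM in mice with low cortical Chat (0.71, SE 0.157). Among those lower it was Nrtn, which encodes the growth factor neurturin, with 0.0618 to 0.626 RPKM (median 0.382) against 1.06, 0.703, 0.687 and 0.603 RPKM (-0.58, SE 0.105).

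**Figure D5:**
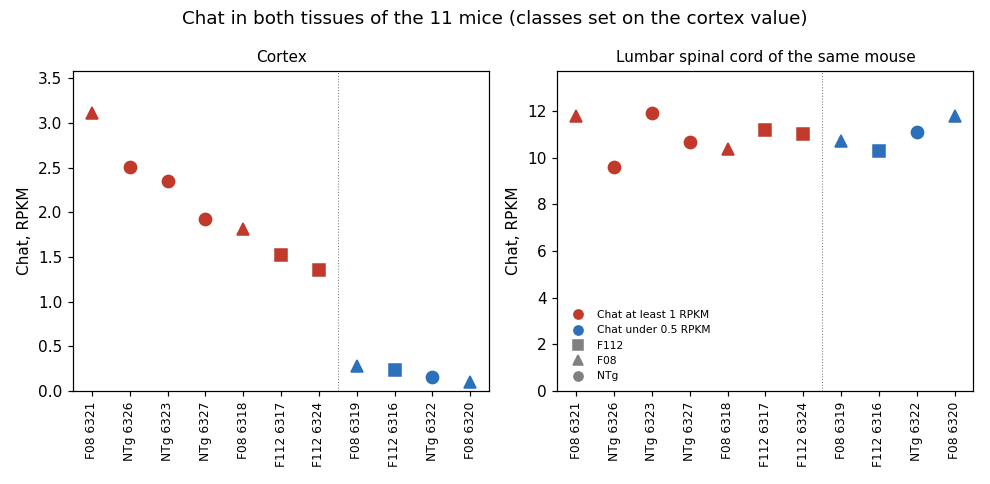
Chat RPKM in the cortex (left panel) and lumbar spinal cord (right panel) of the same 11 mice, with mice of high cortical Chat left of the dotted line; colours mark the cortical class and symbols the genotype. The cortical values separate by construction (1.35 to 3.12 against 0.105 to 0.279 RPKM), whereas the cord values of the classes overlap (9.58 to 11.9 against 10.3 to 11.8 RPKM).

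The low-Chat class held 1 F112, 2 F08 and 1 NTg library. Genotype comparisons in cortex were fitted with the class as a term beside the fit without it. With the term limma called 1 of 13865 genes between F112 and NTg (0.00721%), 0 between F08 and NTg (0%) and 0 between F112 and F08 (0%). An unadjusted p under 0.05 was found for 540 genes between F08 and NTg and 495 between F112 and F08. Both are fewer than the 693 expected by chance. The gene called was mouse C9orf72 (3110043O21Rik in the table), at 1.45 (SE 0.122, limma adjusted p = 0.00138) with the term and 1.44 (SE 0.129, limma adjusted p = 0.00158) without it. Its own difference between the Chat classes was 0.02, and whether it includes reads of the human transgene was not tested.

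For the cholinergic and striatal genes, which are described here because they differ between the Chat classes, a class term must take up part of their spread, so the values with and without it are set side by side as a description. For F08 minus NTg Drd2 was at 0.12 (SE 0.415) with the term and -0.64 (SE 1.06) without it, and Adora2a at 0.08 (SE 0.392) and -0.64 (SE 0.988). The list medians for F08 minus NTg were 0.06 with and -0.64 without the term for D2, 0.06 and -0.29 for D1, 0.03 and -0.33 for the shared list, and 0.08 and -0.31 for the cholinergic list. For F112 minus NTg they were -0.07 and -0.28 for D2, -0.14 and -0.28 for D1, -0.12 and -0.23 for the shared list, and -0.13 and -0.27 for the cholinergic list. For F112 minus F08 the term moved the medians from above to below 0. They were -0.19 with and 0.25 without it for D2, and -0.18 and 0.02 for D1. The shared list was at -0.10 and 0.11, and the cholinergic list at -0.24 and 0.02. Each pair of these comparisons shares the libraries of a genotype, and 0 genes of these lists passed in either fit.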

How the data were processed

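RNA sequencing of cortex (11 libraries) and lumbar spinal cord (11 of 12 libraries used) was analysed from 1 table per tissue. The authors deposited RPKM values per gene, with the number of alignments of each library. Per the labels' protocols, brain used Ion Torrent and spinal cord Illumina procedures. The submitters' processing notes name TopHat2 2.0.8b, Partek, mm9 and mm10; their roles per table, the gene counting and the strandedness were not given in the sources used here. No count model or counting interval was used, since the deposited values are not counts. Alignments per cortex library ranged from 9398450 to 14715900.

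Genes that averaged 0.5 RPKM or more were kept. Genes with every low-Chat value under 0.5 RPKM were kept only through the high-Chat libraries. Among them are Chat, Slc18a3, Slc5a7, Slc10a4, Isl1, Lhx8, Gbx1 and Drd3. Values were transformed as log2(RPKM + 0.5), so fold changes of low genes are understated. Tests used limma 3.58.1 in R 4.3.3 (empirical Bayes with trend, two-sided, Benjamini-Hochberg over all genes, adjusted p under 0.05), and exact permutation or Fisher's tests for library measures. The class, slope and genotype fits were tested on simulated data. Nothing in the labels says more of replicates than that they are separate mice. The members and gene lists were chosen with earlier results of these data known. Genes named are 12 followed throughout, the 10 largest non-overlapping differences per direction, up to 4 per list (or the largest, if none was free of overlap) and the smallest p per test. A few genes chosen this way are left unreported. Other list members and Prkcd, C1ql2, Oxt, Dlk1, Nts, Ache, Ngfr, Gbx1 and Pdyn were added after their values were seen. Alternatives were a pseudocount of 0.1 or 1, a filter at 5 RPKM or none, median-of-ratios and quantile scaling, other model terms, and leaving out libraries; subsets by Xist were added after seeing the data.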

Additional observations from a re-analysis of the deposited data

Results flagged for a closer look

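Within a Chat class, a single library stood far from the rest for 3 of 38 combinations of gene and class examined, by the gap of the extreme library relative to the range of its class, and chance marks about 1 in 20. Pde10a was at 58.4 RPKM in NTg 6326 and at 21.1 to 35.6 RPKM in the other 6 high-Chat libraries. Ttr was at 375 RPKM in NTg 6326 and at 2.18 to 16.6 RPKM in the other 6. Rgs9 was at 3.66 RPKM in NTg 6322 and at 6.96 to 7.39 RPKM in the other 3 low-Chat libraries.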

How the results depend on the processing

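The counts of genes that separated the classes moved most with the libraries included. All 7 above all 4 held for 260 to 667 genes when 1 library was left out, and all 7 below for 100 to 258. Without the 3 Ttr-rich libraries the counts were 1420 and 746. Leaving out libraries cannot lower these counts, since fewer are left to keep apart. A filter at 5 RPKM gave 141 genes above out of only 7592 kept, beside 251 of 13865 in the main setting. Quantile normalization gave 151 below, beside 98. The spinal cord comparison called 1 gene without a filter (E130304I02Rik), and F08 against NTg with the class term called 1 gene with median-of-ratios scaling (mouse C9orf72, limma adjusted p = 0.0484, over a range of 0.0484 to 1.00); the cause was not tested. The exact p for alignments lay between 0.117 and 0.792 over the leave-outs. The other counts of called genes were the same in all 11 leave-outs (7 for the slope). Leaving out 1 library gave medians of 1.49 to 1.62 (cholinergic), 1.43 to 1.60 (D1), 2.15 to 2.42 (D2) and 1.19 to 1.37 (shared). The sign of these 4 medians was fixed in advance, since most genes of each list do not overlap between the classes. Only their size could change. The glutamatergic median, where most genes overlap, lay between -0.53 and -0.43. The other scalings moved the median of all genes by at most 0.04. No paired analysis was possible because the groups compared within a tissue share no mouse number. Alignments limit genes near 0.1 RPKM such as Chat in the low-Chat libraries, whose differences change with the pseudocount.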

Other observations

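Of the 66 genes higher by at least 1 without overlap, 25 were on no list; those given here were chosen after their values were seen. Cd4, a co-receptor of T helper cells, was at 1.10 to 10.1 RPKM (median 3.45) in high-Chat libraries and at 0.790, 0.571, 0.475 and 0.145 RPKM in low-Chat libraries. The serotonin receptor genes Htr1d (1.40) and Htr1b (1.08), the substance P receptor gene Tacr1 (1.24), the potassium channel gene Kcna5 (1.27) and the synaptic vesicle gene Sv2c (1.21) were likewise higher in all 7. Unc13c, a synaptic priming gene, was at 5.90 to 9.43 RPKM in high-Chat libraries and at 3.59, 3.09, 2.46 and 1.47 RPKM in low-Chat libraries.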
